A study of Mus musculus with 12 samples.

Results

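Genes that build ribosomes were followed across loss of the B-cell receptor (BCR) and inhibition of the kinase GSK3 in mouse B lymphoma cells. The set was a list of 39 ribosome biogenesis and nucleolar genes known as targets of the transcription factor MYC, looked up by symbol in the platform annotation. For 38 of them a probe set with no other gene's name was found, out of 18820 genes measured this way. Tsr1 was listed only on a probe set shared with a neighbouring gene and has no value here. In 6 of the 38 genes several probe sets carried the symbol, and the brightest of these on average was used. All 38 lay in the upper part of the signal range, between the 70.1st (Rrs1) and the 99.5th (Npm1) percentile of the genes' mean signals.

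Ribosomes are made in the nucleolus, where RNA polymerase I transcribes the ribosomal RNA precursor. Small nucleolar ribonucleoproteins (snoRNPs) modify this RNA, and large sets of assembly factors fold and cut it into the small and the large subunit. MYC is known to raise the transcription of genes at each of these steps, and in MYC-driven B-cell lymphomas ribosome production is part of what lets cells grow and divide. By role the 38 genes comprised 3 subunits of RNA polymerase I, 7 snoRNP proteins, 10 factors of the small subunit, 14 of the large subunit and 4 nucleolar proteins with several functions.

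The lymphomas came from λ-MYC;B1-8f mice of a C57BL/6J x BALB/c background. These mice carry a MYC transgene under immunoglobulin lambda control, which is active in B cells, and a heavy chain V region flanked for removal by Cre. All groups therefore shared the MYC transgene, and all came from primary cultures treated with TAT-Cre, a recombinase protein that enters cells. BCR-positive cells, which kept the receptor, and BCR-negative cells, which lost it, grew together for 4 days, either untreated or with CHIR99021, a small-molecule inhibitor of GSK3, and were then separated by flow sorting. Lymphomas 2564, 2646 and 2676 each gave 1 Affymetrix Mouse Gene 1.1 ST array to each of the 4 groups, 12 arrays in all. All values are RMA expression levels on the log2 scale, so that a difference of 1 is a doubling, and differences were taken within lymphomas.

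As a check of the sort, Ighv1-72, the segment the B1-8 heavy chain is built from, kept 10.3% to 38.2% of the BCR-positive signal in untreated BCR-negative cells and 7.92% to 18.2% with CHIR99021. Of the B-cell markers, Cd79a, Cd79b, Pax5, Ebf1, Blnk and Cd22 were between the 87.9th and the 99.3rd percentile of genes, while Ms4a1, which encodes CD20, was near the bottom of the scale (3.03 to 3.92). The 5 T-cell markers had a mean signal of 4.10 to 4.24 on all 12 arrays the 4 stromal markers 4.75 to 4.93, and Alas2, the erythroid marker measured, 4.34 to 4.58. The 4 plasma cell markers averaged 7.53 to 8.11. Irf4 (0.50) and Sdc1 (0.35) had higher means in untreated BCR-negative than BCR-positive cells (limma, adjusted p = 0.0643 and 0.230). Xbp1 (-0.12) and Jchain (-0.04) had lower means (limma, adjusted p = 0.584 and 0.780). Jchain was near the bottom of the scale (3.56 to 3.83). The mean of the 7 B-cell markers was 9.44 to 9.60 in BCR-positive and 9.50 to 9.82 in BCR-negative untreated cells, and 8.90 to 9.46 and 8.97 to 9.54 with CHIR99021. Myeloid markers averaged 4.06 to 5.06, and the range was 4.17 to 4.75 in untreated BCR-positive and 4.27 to 5.06 in untreated BCR-negative cells. Over the 12 arrays Csf1r ran from 4.52 to 8.53 and Itgam from 4.68 to 8.03, while Lyz2, Adgre1, Cd14 and Mpo stayed between 3.26 and 4.77. Csf1r was higher by 0.38 in untreated BCR-negative cells (limma, adjusted p = 0.412). Of the 6 myeloid markers, 1 was called in some comparison. The part of these markers in the results was not tested. Single markers moved more: Blnk, a BCR signalling adaptor, was higher by 0.63 in untreated BCR-negative cells (limma, adjusted p = 0.0170), and the myeloid marker Itgam by 0.76 (limma, adjusted p = 0.130). Array medians over all probe sets ran from 4.71 to 4.92, with a mean of 4.82 ± 0.028 (SD, n = 3) in untreated BCR-positive and 4.88 ± 0.054 in untreated BCR-negative cells. With CHIR99021 the medians were 4.77 ± 0.063 and 4.82 ± 0.041.

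Promoter windows from RefSeq (assembly GRCm38.p6), reaching from 250 bases before to 50 bases after the transcription start, were at hand for 33 of the 38 genes. The E-box CACGTG, the element that MYC binds with its partner MAX, was found in the window of 5 of 33 genes (15.2%), against 8.09% of the 27025 genes in the table. Those 5 were Ltv1, Pes1, Nop2, Grwd1 and Wdr43. The variant CACGCG, searched on both strands, was in 9 of 33 (27.3%, against 10.5%), and the GC box GGGCGG in 24 of 33 (72.7%, against 38.2%). CCAAT was in 9 of 33 (27.3%, against 41.1%) and TATAAA in 2 of 33 (6.06%, against 15.7%). The windows were also richer in G and C, with a median of 59.7% against 52.7% over all 32851 windows; its part in these shares was not tested. These matches are a description of letters and not of bound sites. The stretch from 70 bases before to 50 bases after the start is shown for the genes that changed and have a window, and for the other E-box carriers, so that start regions with and without the element can be compared. Capitals mark CACGTG or CACGCG.
Wdr74 (chr19:8735769-8735888, + strand): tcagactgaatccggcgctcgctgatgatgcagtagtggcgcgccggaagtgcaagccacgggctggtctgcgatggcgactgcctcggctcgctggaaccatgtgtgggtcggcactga
Mrto4 (chr4:139352527-139352646, - strand): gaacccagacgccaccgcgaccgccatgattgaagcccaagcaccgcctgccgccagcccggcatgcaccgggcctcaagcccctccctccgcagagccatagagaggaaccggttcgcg
Ftsj3 (chr11:106256035-106256154, - strand): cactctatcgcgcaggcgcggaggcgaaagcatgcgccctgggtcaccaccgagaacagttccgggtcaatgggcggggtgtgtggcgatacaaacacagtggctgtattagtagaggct
Wdr75 (chr1:45795096-45795215, + strand): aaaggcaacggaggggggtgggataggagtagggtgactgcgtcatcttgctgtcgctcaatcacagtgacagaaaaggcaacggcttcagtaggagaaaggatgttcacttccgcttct
Nip7 (chr8:107056807-107056926, + strand): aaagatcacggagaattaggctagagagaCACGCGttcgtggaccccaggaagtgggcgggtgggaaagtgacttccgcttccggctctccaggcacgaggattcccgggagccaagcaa
Ltv1 (chr10:13193088-13193207, - strand): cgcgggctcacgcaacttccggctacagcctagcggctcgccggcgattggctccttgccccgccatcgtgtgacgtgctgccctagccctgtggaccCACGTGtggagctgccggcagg
Pes1 (chr11:3963905-3964024, + strand): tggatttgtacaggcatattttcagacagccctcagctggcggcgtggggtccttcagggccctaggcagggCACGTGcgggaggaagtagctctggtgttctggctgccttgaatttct
Nop2 (chr6:125131813-125131932, + strand): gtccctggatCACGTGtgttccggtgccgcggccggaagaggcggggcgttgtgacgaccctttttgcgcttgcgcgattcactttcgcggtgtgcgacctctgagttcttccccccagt
Grwd1 (chr7:45830740-45830859, - strand): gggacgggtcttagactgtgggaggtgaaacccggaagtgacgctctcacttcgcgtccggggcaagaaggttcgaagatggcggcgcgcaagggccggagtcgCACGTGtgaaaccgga
Wdr43 (chr17:71616145-71616264, + strand): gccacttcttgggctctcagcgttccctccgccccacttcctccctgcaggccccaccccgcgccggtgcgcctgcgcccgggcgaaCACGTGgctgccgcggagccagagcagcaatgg
Of the 7 genes that changed in any comparison, Rrp12 has no window in the table. Ltv1 had CACGTG just after the start, and Nip7 had CACGCG before it. Wdr74, Mrto4, Ftsj3 and Wdr75 had neither in the stretch shown.

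Seen as a whole, the 38 genes were lowest in untreated BCR-negative cells of each lymphoma. The mean over the 38 genes, taken relative to the mean of the lymphoma's own 4 arrays, was -0.11 in lymphoma 2564, -0.23 in 2646 and -0.26 in 2676 in these cells. In untreated BCR-positive cells it was -0.02, 0.10 and 0.06. In CHIR99021-treated BCR-positive cells it was 0.07, 0.15 and 0.24, the highest of the 4 populations in each lymphoma, though in 2564 it was level with treated BCR-negative cells. In CHIR99021-treated BCR-negative cells the mean was 0.07, -0.01 and -0.04, between the untreated BCR-negative cells and the treated BCR-positive ones. Gene by gene, untreated BCR-negative cells held the lowest of the 4 values for 30 of the 38 genes in lymphoma 2564, for 36 in 2646 and for 35 in 2676. The highest value was that of treated BCR-positive cells for 18, 27 and 34 genes in the same order. Lymphoma 2564 stood apart in that 15 genes were highest in treated BCR-negative cells, against 1 in each of the others. Each population was measured as bulk RNA, so fewer cells with a transcript and less of it per cell cannot be told apart.

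**Figure D1:**
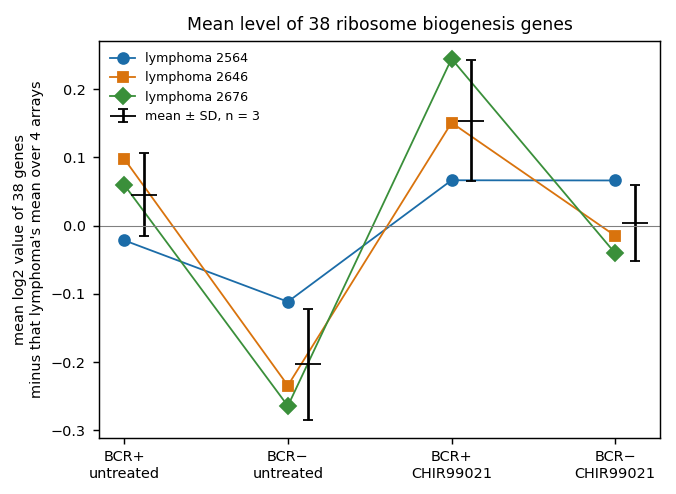
Mean log2 value of 38 ribosome biogenesis genes on each of 12 arrays, minus the mean of the same lymphoma's 4 arrays (y axis), in the 4 populations (x axis). Coloured points joined by lines are the 3 lymphomas and black bars the group mean ± SD (n = 3); untreated BCR-negative cells sit lowest in each lymphoma, between -0.26 and -0.11.

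The first comparison asked how these genes stood in cells that had lost the BCR and competed with BCR-positive neighbours without inhibitor. All 38 genes had a lower mean in BCR-negative cells, and 6 of them fell, the large-subunit factors Wdr74, Mrto4 and Ftsj3 and the small-subunit factors Wdr75, Rrp12 and Ltv1, by 0.36 to 0.46 on the log2 scale (limma, adjusted p = 0.0246 to 0.0457). That is 15.8% of the 38 genes, against 2.30% of all genes called lower at an adjusted p under 0.05, and none of the 38 was called higher. The median difference of the 38 was -0.26, with -0.10 in lymphoma 2564, -0.34 in 2646 and -0.32 in 2676, against a median of 0.00 over all genes. A lower value in all 3 lymphomas was found for 31 of the 38. Over all genes 51.0% had a lower mean, and 4111 of 18820 were lower in all 3 lymphomas. At an unadjusted p under 0.05, 28 genes were lower (73.7%, against 12.2% of all genes). Bright genes leaned the same way. Among the 5635 genes at least as bright as the dimmest of the 38, 63.6% had a lower mean, 5.32% were called lower and the median was -0.06. Of these bright genes 2207 were lower in all 3 lymphomas, and 1559 were lower at an unadjusted p under 0.05.

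Mrto4 encodes a factor that takes part in assembling the stalk region of the large subunit. On the untreated BCR-positive arrays of lymphomas 2564, 2646 and 2676 it read 8.83, 8.70 and 8.74, and on the BCR-negative ones 8.55, 8.15 and 8.24. With CHIR99021 it read 9.02, 8.92 and 8.99 in BCR-positive and 8.96, 8.55 and 8.53 in BCR-negative cells. The untreated groups did not overlap, and the fall was 0.44 ± 0.080 (SE, n = 3 lymphomas; limma, adjusted p = 0.0246). Mrto4 was also the gene with the largest share of its variation between the 4 groups, 75.8% of the sum of squares, against 17.1% between lymphomas.

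Wdr74, a WD-repeat protein of early large-subunit particles, had the largest fall of the 38. It read 10.12, 9.63 and 9.45 in untreated BCR-positive cells of lymphomas 2564, 2646 and 2676, and 9.87, 9.06 and 8.89 in the BCR-negative ones. In treated cultures its values were 10.33, 9.68 and 9.72 in BCR-positive and 10.24, 9.38 and 9.27 in BCR-negative cells. Lymphoma 2564 was higher than the other two in every population, so the groups overlapped although each lymphoma showed a lower value, by 0.46 ± 0.084 on average (limma, adjusted p = 0.0263).

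Ftsj3 encodes a methyltransferase-related factor of ribosomal RNA processing. Its untreated values were 9.33, 9.07 and 9.15 in BCR-positive and 9.13, 8.58 and 8.75 in BCR-negative cells of lymphomas 2564, 2646 and 2676. With CHIR99021 they were 9.48, 9.07 and 9.34 in BCR-positive and 9.45, 8.93 and 9.16 in BCR-negative cells. The untreated groups overlapped because BCR-negative 2564 cells lay above BCR-positive 2646 cells, while the fall within lymphomas was 0.36 ± 0.066 (limma, adjusted p = 0.0263).

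Among the small-subunit genes, Wdr75 belongs to the U3-containing processome that cuts the early precursor. It read 9.80, 9.74 and 9.71 in untreated BCR-positive cells against 9.64, 9.17 and 9.30 in BCR-negative ones, and 9.83, 9.78 and 9.82 against 9.87, 9.57 and 9.69 with CHIR99021. The untreated groups did not overlap, and the fall was 0.38 ± 0.080 (limma, adjusted p = 0.0344). Ltv1, needed late in small-subunit maturation, read 8.27, 8.68 and 8.62 in untreated BCR-positive and 8.01, 8.20 and 8.26 in BCR-negative cells, with a fall of 0.37 ± 0.083 (limma, adjusted p = 0.0427). In its case the groups were separated by a narrow gap, and treated cells stood at 8.15, 8.71 and 8.73 (BCR-positive) and 8.28, 8.40 and 8.59 (BCR-negative). Rrp12, which helps to export pre-ribosomal subunits, read 8.11, 7.77 and 7.60 in untreated BCR-positive and 7.91, 7.21 and 7.22 in BCR-negative cells. With the inhibitor it read 8.41, 7.87 and 7.90 in BCR-positive and 8.21, 7.56 and 7.29 in BCR-negative cells. Its untreated groups overlapped through the high values of lymphoma 2564, and it fell by 0.38 ± 0.088 (limma, adjusted p = 0.0457).

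**Figure D2:**
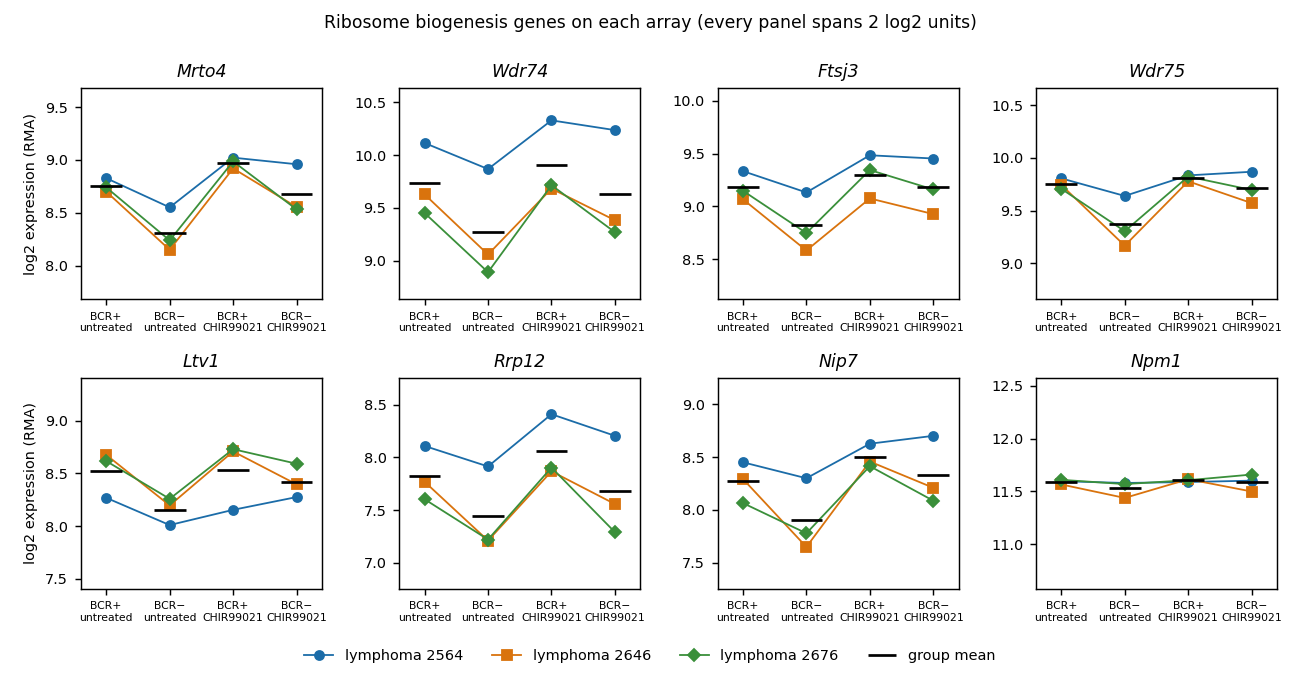
Log2 expression (y axis) of 7 genes that changed and of Npm1, on each of 12 arrays in the 4 populations (x axis). Points joined by lines are lymphomas, black bars are group means (n = 3) and each panel spans the same range; the 7 genes dip in untreated BCR-negative cells of every lymphoma, and Npm1 stays between 11.44 and 11.66.

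The other small-subunit factors did not pass. Nop14 (-0.33 ± 0.100) and Noc4l (-0.21 ± 0.071), which act as a pair, the U3 snoRNP protein gene Rrp9 (-0.32 ± 0.110), the processome gene Heatr1 (-0.26 ± 0.080) and Bysl (-0.28 ± 0.109), which encodes bystin, had adjusted p between 0.089 and 0.183 in limma. Wdr43 (-0.12 ± 0.063) and Nob1 (-0.03 ± 0.080), the endonuclease that makes the final cut of 18S ribosomal RNA, had the smallest differences. Over the 10 small-subunit genes the median was -0.30.

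In the large-subunit group the median was also -0.30, with 13 of 14 genes lower in every lymphoma. The exception was Noc2l, which was higher by 0.21 in BCR-negative cells of lymphoma 2564 and lower by 0.20 in 2646 and 0.36 in 2676. Bop1 (-0.31 ± 0.086), Pes1 (-0.29 ± 0.080) and Wdr12 (-0.26 ± 0.078) form the PeBoW complex, which is required for 28S ribosomal RNA maturation, and lay close to each other (limma, adjusted p = 0.0720, 0.0689 and 0.0927). The RNA methyltransferase gene Nop2 (-0.30 ± 0.082), the 60S factor Nip7 (-0.36 ± 0.099), Rrp1b (-0.31 ± 0.095) and the histone-binding factor Grwd1 (-0.29 ± 0.100) had differences of like size, and none passed (limma, adjusted p = 0.0689 to 0.131). Rrs1 had a mean difference of -0.38 but the widest error (0.164), since it was -0.03 in lymphoma 2564, -0.41 in 2646 and -0.69 in 2676. Nop16 (-0.21 ± 0.071) and Noc3l (-0.18 ± 0.078) were smaller.

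No snoRNP gene passed, with a median of -0.23. The 2 with the smallest p were Dkc1, which encodes the pseudouridine synthase dyskerin, and Fbl, which encodes the methyltransferase fibrillarin. Dkc1 read 10.54, 10.55 and 10.59 in untreated BCR-positive cells and 10.42, 10.29 and 10.29 in BCR-negative ones. The groups did not overlap, but its difference of -0.23 ± 0.063 did not pass (limma, adjusted p = 0.0723). Fbl read 11.32, 11.36 and 11.08 against 11.11, 11.01 and 10.79, with overlapping groups and a difference of -0.28 ± 0.091 (limma, adjusted p = 0.107). Gar1, a partner of dyskerin, had a difference of -0.37 ± 0.128, which rested on lymphoma 2646 (-0.71, against -0.12 in 2564 and -0.30 in 2676). Nop56 and Nop58, the paired scaffold proteins of the box C/D particle, had -0.07 ± 0.068 and -0.22 ± 0.078, and the chaperone gene Nolc1 -0.26 ± 0.099. Nhp2 had -0.15 ± 0.079.

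The smallest median differences were those of RNA polymerase I (-0.13) and of the multifunctional nucleolar proteins (-0.14). Polr1b, the second largest subunit, read 10.67, 10.30 and 10.62 in untreated BCR-positive and 10.64, 10.16 and 10.33 in BCR-negative cells, a difference of -0.15 ± 0.071 (limma, adjusted p = 0.265). Polr1a, the largest subunit, read 10.04, 9.54 and 9.74 against 9.96, 9.46 and 9.51 (-0.13 ± 0.065; limma, adjusted p = 0.302), and Polr1c had -0.08 ± 0.058. All 3 were lower in every lymphoma, but by no more than 0.28. The helicase gene Ddx21 read 10.76, 10.59 and 10.64 against 10.64, 10.32 and 10.33, a difference of -0.24 ± 0.060 that missed the threshold (limma, adjusted p = 0.0574). Nucleolin (Ncl) read 11.51, 11.53 and 11.56 against 11.50, 11.33 and 11.42 (-0.12 ± 0.053; limma, adjusted p = 0.239), with no overlap between the groups. Nucleophosmin (Npm1), an abundant nucleolar chaperone, had -0.06 ± 0.053, and Gnl3, which encodes nucleostemin, had -0.16 ± 0.091.

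Across roles, 8 of 38 genes had all 3 BCR-negative arrays below all 3 BCR-positive ones in untreated cultures (21.1%, against 5.72% of all genes). These were Mrto4, Wdr75, Ltv1, Dkc1, Nhp2, Bysl, Pes1 and Ncl. The gene count rested on the lymphoma block and on a few arrays. None of the 38 was called when the block was dropped or made random, or when the 6 arrays of this comparison were fitted alone. In these fits 2, 27 and 0 of all 18820 genes were called lower, against 432 in the fit reported. The count of the 38 was 0 too without lymphoma 2646 or 2676 (0 and 2 of all genes lower). It was also 0 without any 1 of the untreated arrays of 2646 and 2676 (10 to 154 of all genes). It was 11 without lymphoma 2564 and 15 without its untreated BCR-negative array (437 and 635). It was 3 without the treated BCR-positive or the treated BCR-negative array of 2646 or the treated BCR-positive array of 2676 (207, 145 and 271). Subtracting array medians raised it to 13 (1013 of all genes lower).

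**Figure D3:**
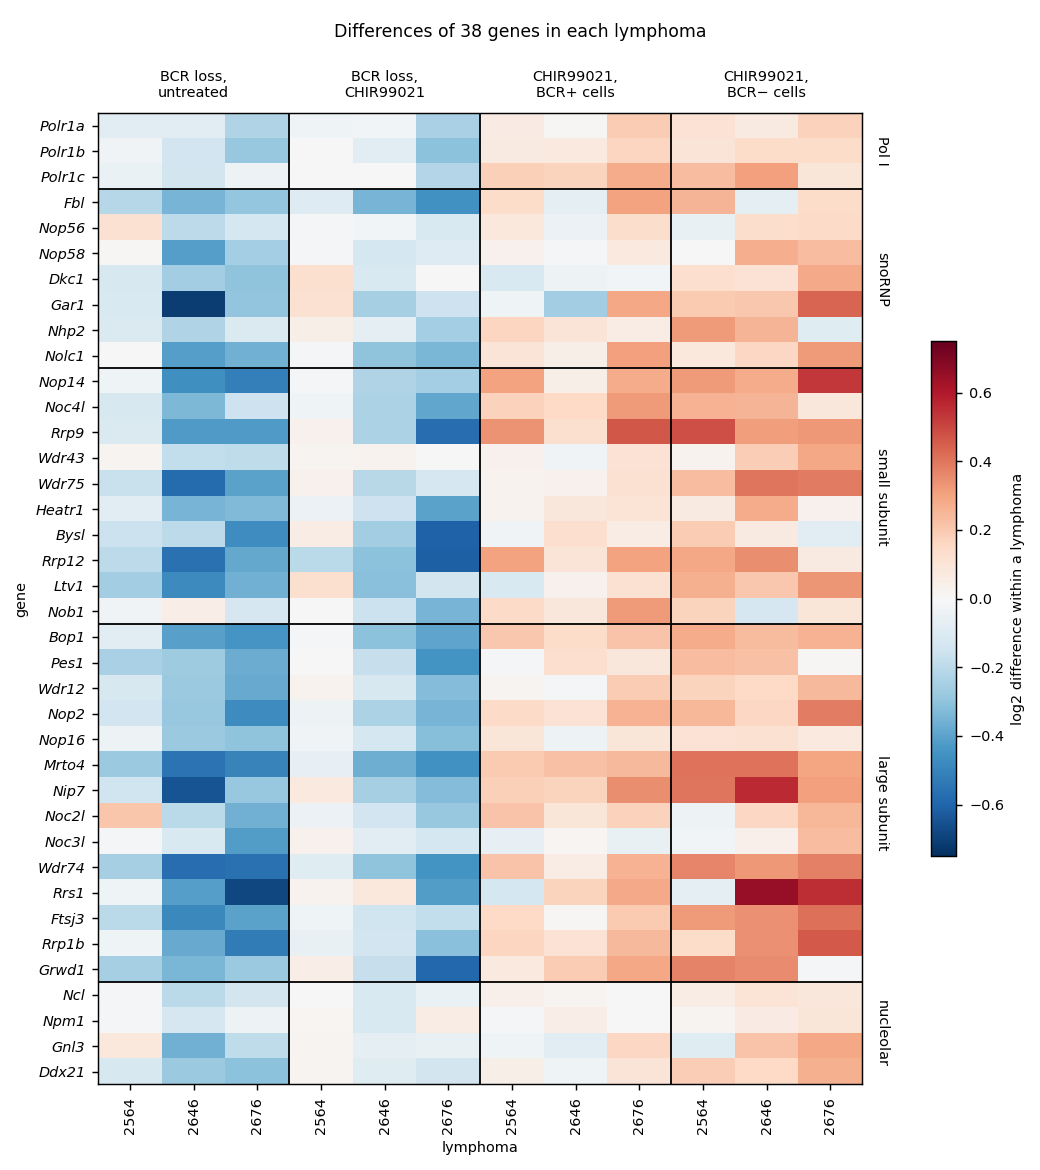
Log2 difference of each of 38 genes (rows, grouped by role) within each lymphoma (columns) for BCR loss without and with CHIR99021 and for CHIR99021 in BCR-positive and BCR-negative cells. Blue is lower and red higher; for BCR loss in untreated cultures the column of lymphoma 2564 is paler (median -0.10) than those of 2646 (-0.34) and 2676 (-0.32).

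The second comparison asked the same of BCR loss while GSK3 was inhibited in both populations. No gene of the 38 was called in either direction (0.0159% of all genes were, 3 in all). A lower mean in BCR-negative cells was found for 36 of 38, and for 47.7% of all genes. The median of the 38 was -0.15 against 0.00 over all genes. At an unadjusted p under 0.05, 12 of the 38 were lower (31.6%, against 3.78% of all genes). Of the 5635 bright genes 400 were lower at that level, and 53.5% had a lower mean. The 3 with the smallest p were Rrp12 (-0.38 ± 0.088), Mrto4 (-0.29 ± 0.080) and Wdr74 (-0.28 ± 0.084), whose adjusted p in limma were 0.424, 0.457 and 0.480. Rrp12 was lower by 0.20, 0.31 and 0.61 in lymphomas 2564, 2646 and 2676. Wdr43 (0.01 ± 0.063) and Dkc1 (0.00 ± 0.063) were the 2 with a mean above 0, and the ribosomal RNA methyltransferase gene Fbl (-0.30 ± 0.091) was among the lowest.

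The lymphomas differed more here. The median over the 38 genes was 0.00 in 2564, -0.15 in 2646 and -0.31 in 2676, and 19, 36 and 36 genes were lower in BCR-negative cells. The small-subunit genes had a median of 0.01, -0.23 and -0.37 in this order, and the multifunctional proteins 0.02, -0.10 and -0.05. With 1 pair of arrays for each lymphoma this difference was not tested.

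The third comparison asked what CHIR99021 did in BCR-negative cells. It shares the untreated BCR-negative arrays with the first comparison, so a value of these arrays that is low by chance enters both with opposite signs. All 38 genes had a higher mean with the inhibitor, and 5 rose, the large-subunit factors Nip7 (0.42 ± 0.099), Mrto4 (0.37 ± 0.080), Ftsj3 (0.36 ± 0.066) and Wdr74 (0.36 ± 0.084) and the small-subunit factor Wdr75 (0.34 ± 0.080), with adjusted p from 0.0240 (Ftsj3) to 0.0496 (Wdr74) in limma. They were 13.2% of the 38 genes, against 1.91% of all genes called higher, and none was called lower. The median of the 38 was 0.19, with 0.19, 0.21 and 0.25 in lymphomas 2564, 2646 and 2676, against 0.01 over all genes and 0.05 over the 5635 bright ones. A higher value in all 3 lymphomas was seen for 28 of the 38, and 20 were higher at an unadjusted p under 0.05 (52.6%, against 11.4%). Over all genes 10196 of 18820 had a higher mean, and 3996 were higher in all 3 lymphomas. Of the 5635 bright genes 3497 had a higher mean, 4.35% were called higher and 1914 were higher in all 3 lymphomas. At an unadjusted p under 0.05, 1369 of these bright genes were higher.

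Nip7, a factor of 60S assembly, read 8.30, 7.65 and 7.78 in untreated and 8.70, 8.21 and 8.09 in treated BCR-negative cells of lymphomas 2564, 2646 and 2676. The groups overlapped, since the untreated 2564 array was above both other treated arrays, while each lymphoma rose, by 0.40, 0.56 and 0.31. BCR-positive cells read 8.45, 8.29 and 8.06 untreated and 8.63, 8.46 and 8.41 treated. Ftsj3 rose by 0.32, 0.34 and 0.41, Mrto4 by 0.41, 0.40 and 0.29, Wdr74 by 0.37, 0.32 and 0.38, and Wdr75 by 0.23, 0.40 and 0.39 in the 3 lymphomas. Ltv1 was the gene whose 3 treated arrays lay above all 3 untreated ones (1 of 38, 2.63%, against 4.60% of all genes), but its difference of 0.27 ± 0.083 did not pass (limma, adjusted p = 0.108).

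Genes that did not pass in BCR-negative cells included Nop14 (0.38 ± 0.100; limma, adjusted p = 0.0677), Polr1c (0.21 ± 0.058; limma, adjusted p = 0.0769), Rrp9 (0.37 ± 0.110), Ddx21 (0.20 ± 0.060) and Rrp12 (0.24 ± 0.088). Rrs1 again had the widest error (0.38 ± 0.164), with -0.07, 0.66 and 0.55 in lymphomas 2564, 2646 and 2676. By role the medians were 0.26 for the large subunit, 0.22 for the small subunit, 0.17 for snoRNP genes, 0.13 for RNA polymerase I and 0.11 for the multifunctional proteins. The smallest mean changes were those of Bysl (0.06 ± 0.109), Npm1 (0.06 ± 0.053) and Nob1 (0.04 ± 0.080).

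Among genes shown on every array above, treated cultures gave the following values in lymphomas 2564, 2646 and 2676. Dkc1 read 10.42, 10.51 and 10.56 in BCR-positive and 10.54, 10.40 and 10.57 in BCR-negative cells. Fbl read 11.46, 11.28 and 11.39 against 11.36, 10.94 and 10.93. For both, treated and untreated BCR-negative values overlapped. Ddx21 read 10.80, 10.56 and 10.73 in BCR-positive and 10.82, 10.47 and 10.60 in BCR-negative cells, and Ncl 11.55, 11.55 and 11.56 against 11.55, 11.43 and 11.51. Polr1b read 10.73, 10.38 and 10.78 against 10.74, 10.30 and 10.47, and Polr1a 10.10, 9.55 and 9.93 against 10.07, 9.53 and 9.68. In these 4 genes too the treated BCR-negative values overlapped with the untreated ones.

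This count, 5, also moved with single arrays. None of the 38 was called without the block, with a random block or with only the 6 arrays (1, 23 and 1 of all 18820 genes called higher). The same held without lymphoma 2564, 2646 or 2676 (26, 0 and 63 of all genes). It also held without the treated BCR-negative array of 2564 or 2646 (9 and 10) or the untreated one of 2646 or 2676 (32 and 229). Of the 38, 1 was called after cyclic loess (237 of all genes) and without the treated BCR-positive array of 2646 (203). The count was also 1 without the BCR-positive array of 2676, treated or untreated (208 and 180). Without the untreated BCR-positive array of 2646 it was 2 (290), and without that of 2564 it was 3 (272). Without the untreated BCR-negative array of 2564 it was 9 (383). The fit reported called 360 of all genes higher.

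The fourth comparison asked what CHIR99021 did in BCR-positive cells. No gene of the 38 was called (0.0744% of all genes were, 14 in all). The mean was higher with the inhibitor for 35 of 38, and for 9633 of all 18820 genes. The median of the 38 was 0.10 against 0.00 over all genes, and 0.08, 0.05 and 0.19 in lymphomas 2564, 2646 and 2676. Without the treated BCR-positive array of 2676 the median was 0.033. At an unadjusted p under 0.05, 7 were higher (18.4%, against 4.69%), and 21 were higher in all 3 lymphomas (3508 of all 18820 genes were). Of the 5635 bright genes 454 were higher at that level, and 1523 were higher in all 3 lymphomas. The smallest p were those of Polr1c (0.21 ± 0.058), a subunit shared by RNA polymerases I and III, Noc4l (0.22 ± 0.071) and Rrp9 (0.31 ± 0.110), with adjusted p of 0.232, 0.324 and 0.360 in limma. Polr1c read 9.51, 9.35 and 9.26 in untreated and 9.69, 9.52 and 9.53 in treated BCR-positive cells, with no overlap. The same held for Nhp2, Noc4l, Nob1 and Mrto4, so that 5 of 38 did not overlap (13.2%, against 3.61% of all genes). Dkc1 (-0.06 ± 0.063), Gar1 and Noc3l were the 3 with a mean below 0.

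Whether BCR loss differed with and without the inhibitor was tested as an interaction, the BCR-loss difference in CHIR99021 cultures minus that in untreated ones. None of the 38 was called, nor was any of the 18820 genes (0%; limma), while at an unadjusted p under 0.05 631 genes were higher, 3 of the 38 among them, and 359 lower. The median of the 38 was 0.08, with 0.07, 0.16 and 0.05 in lymphomas 2564, 2646 and 2676, against 0.01 over all genes and 0.04 over the bright ones. The 3 genes were Ftsj3 (0.24 ± 0.094), Dkc1 (0.23 ± 0.089) and Wdr75 (0.28 ± 0.113), or 7.89% of the 38 against 3.35% of all genes higher at that level, with an adjusted p of 0.928 in limma for each. Of the 5635 bright genes 346 were higher at that level. The 95% confidence interval was 0.03 to 0.45 for Ftsj3 and -0.28 to 0.28 for Rrp12. The Rrp12 difference for BCR loss was -0.38 without and -0.38 with the inhibitor.

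The last comparison set BCR-negative cells given CHIR99021 against BCR-positive cells without it. No gene of the 38 was called (0.0159% of all genes were), and 37 of the 38 intervals at the 95% level included 0. The exception was Polr1c, 0.13 ± 0.058 higher in treated BCR-negative cells with an interval of 0.00 to 0.26, the 1 gene of 38 higher at an unadjusted p under 0.05 (2.63%, against 4.69% of all genes). Its adjusted p in limma was 0.550. Next by p were Bysl (-0.22 ± 0.109) and Fbl (-0.18 ± 0.091), with adjusted p of 0.625 and 0.637 in limma. The dimmer probe set of Fbl, not used for the gene, gave 0.02 ± 0.070 here. Of the genes called elsewhere, Ftsj3 had 0.00 ± 0.066 (interval -0.15 to 0.15), Wdr75 -0.04 ± 0.080 (-0.22 to 0.14), Mrto4 -0.07 ± 0.080 (-0.25 to 0.10), Wdr74 -0.10 ± 0.084 (-0.29 to 0.09), Nip7 0.06 ± 0.099 (-0.16 to 0.28) and Rrp12 -0.14 ± 0.088 (-0.34 to 0.05). For Fbl and Bysl the intervals reach -0.38 and -0.46, past their differences in the first comparison, so equal levels are not shown. The median over the 38 genes was -0.04, with 0.07 in lymphoma 2564, -0.12 in 2646 and -0.07 in 2676, and 5, 34 and 29 genes lay below 0 in these lymphomas.

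**Figure D4:**
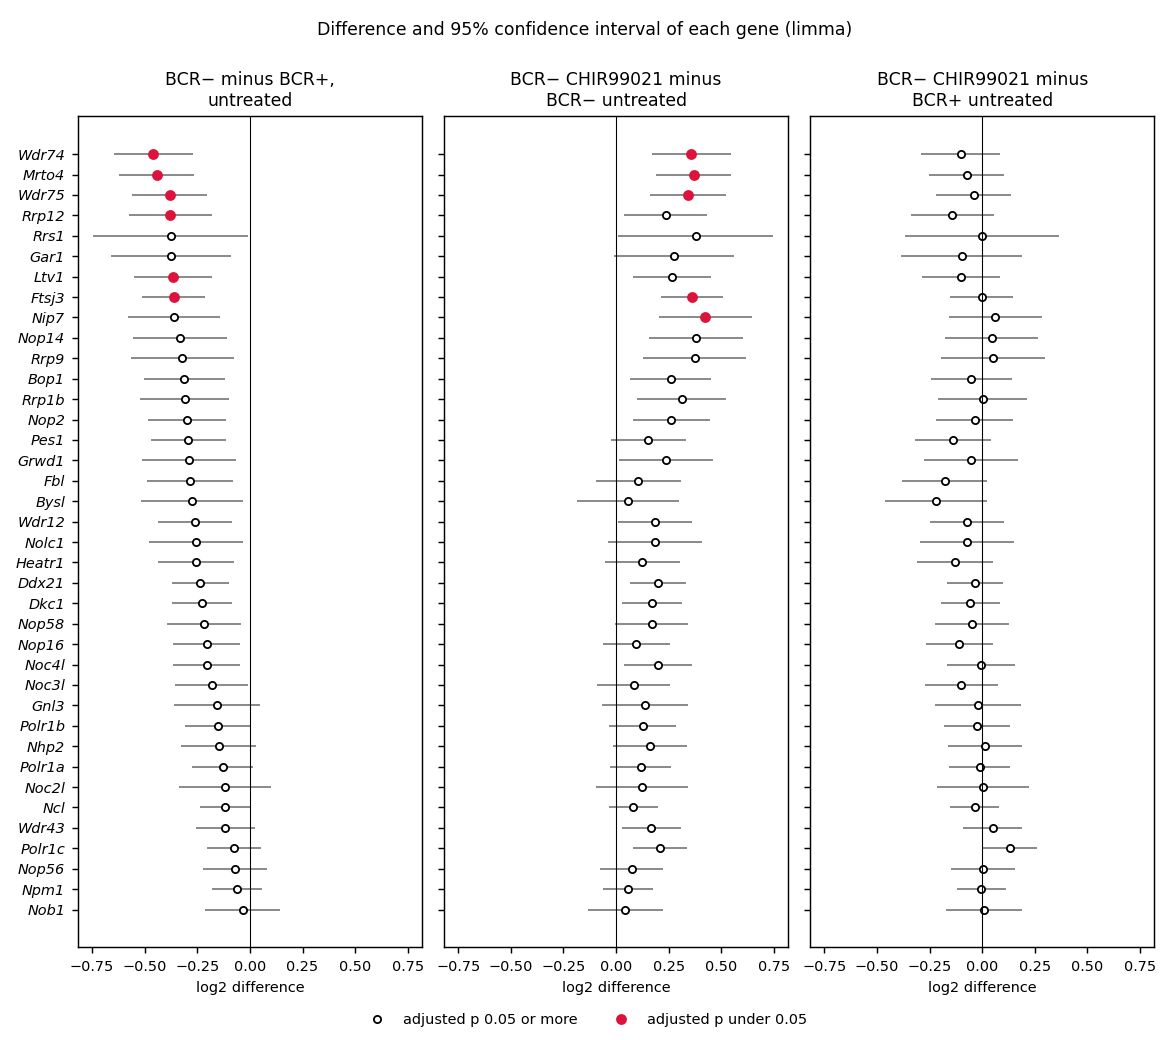
Log2 difference (x axis) and 95% confidence interval (limma, n = 3 lymphomas) of each of 38 genes (rows, ordered by the first panel) for BCR loss in untreated cultures, for CHIR99021 in BCR-negative cells, and for treated BCR-negative against untreated BCR-positive cells. Filled points passed an adjusted p of 0.05; in the third panel 37 of 38 intervals include 0.

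Other ribosome biogenesis genes, from a list of 127 of which 110 were measured, were read from the same fit. In untreated cultures 20 of the 110 fell with BCR loss (18.2%, against 2.30% of all genes and 5.32% of the bright ones), 1 rose (against 1.91% of all genes), and 103 had a lower mean, with a median of -0.21. Over all genes 51.0% had a lower mean. The calls share the limits of the first comparison. Of all 18820 genes 2 were called lower with no block, and 0 with only the arrays compared or without lymphoma 2646. The largest falls were those of the small-subunit factors Tsr3 (-0.69 ± 0.107), Pno1 (-0.59 ± 0.080), Utp11 (-0.47 ± 0.102) and Nol10 (-0.47 ± 0.081), followed by Wdr18 (-0.43 ± 0.098) of the large-subunit group, with adjusted p of 0.0110 (Pno1) to 0.0444 (Wdr18) in limma. Nop53, a large-subunit factor, rose by 0.31 ± 0.065 (limma, adjusted p = 0.0346). Called lower were 4 of 12 genes of the RNA polymerase I machinery, 8 of 38 small-subunit and 4 of 40 large-subunit factors, and 4 of 20 of the exosome, snoRNP assembly and other nucleolar genes. The 12 include Polr2e, Polr2f, Polr2h, Polr2k and Polr2l, subunits that RNA polymerases I, II and III share, so this group is not particular to RNA polymerase I.

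With CHIR99021 in BCR-negative cells 11 of the 110 rose and 1 fell, with a median of 0.17; 1.91% of all genes and 4.35% of the bright ones were called higher, and 1.76% and 3.23% lower. Utp11 (0.56 ± 0.102), Tsr3 (0.50 ± 0.107), Lyar (0.43 ± 0.093), Rrp15 (0.38 ± 0.084) and Nol10 (0.38 ± 0.081) had the largest rises, with adjusted p of 0.0226 to 0.0407 in limma. The exosome subunit gene Exosc5 fell by 0.34 ± 0.067 (limma, adjusted p = 0.0292). In this comparison 1 of all 18820 genes was called higher with no block, 1 with only the arrays compared, and 0 without lymphoma 2646. None of the 110 was called for BCR loss with CHIR99021 (median -0.12), for CHIR99021 in BCR-positive cells (median 0.07), for the interaction (median 0.09) or between treated BCR-negative and untreated BCR-positive cells (median -0.06).

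The 38 genes also differed among themselves in how far the lymphoma set their level. The median share of a gene's sum of squares that lay between lymphomas was 46.3% for the 38 genes and 36.8% for all genes, and the share between the 4 groups 40.0% and 21.3%. Noc3l was at one end, with 86.4% between lymphomas and 6.7% between groups. It read 9.38 to 9.44 on the 4 arrays of lymphoma 2564, 8.78 to 8.91 in 2646 and 8.67 to 9.09 in 2676. The lowest share between lymphomas was that of Rrs1 (0.6%, with 52.7% between groups). The largest shares between groups were those of Mrto4 (75.8%), Dkc1 (69.0%) and Wdr75 (67.7%), with 17.1%, 6.9% and 19.8% between lymphomas. Npm1, whose 12 values lay between 11.44 and 11.66, and Ncl moved least in absolute terms, and both are among the brightest genes of the array.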

How the data were processed

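The deposited values are log2 expression levels per probe set, which the authors obtained by RMA; the submitters' processing notes name Affymetrix Power Tools, with its version not given in the sources used here. RMA includes quantile normalization, which gives all arrays a like distribution, so a change in total RNA per cell cannot be read. Of 35556 probe sets, 21218 carried 1 gene symbol in the platform annotation, 1881 had several, and 12457, which the annotation does not list, stay unnamed. They gave 18820 genes. Symbols were set against RefSeq by Entrez identifier (21185 matched).

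limma 3.58.1 in R 4.3.3 fitted group plus lymphoma to the 12 arrays, which leaves 6 residual degrees of freedom, with variances moderated by eBayes, and p-values were adjusted by Benjamini-Hochberg across all 18820; an adjusted p under 0.05 is a call. SE are those of limma, from the spread left after group and lymphoma, which is pooled over all 4 groups. The p-values set changes against this pooled spread in these 3 lymphomas, not against the spread of 1 comparison alone. The design pairs arrays by lymphoma: deviations from group means correlated at r of 0.813 to 0.907 within lymphomas (18 pairs) and -0.625 to -0.248 between them (48 pairs), the latter being pushed below 0 by the centring. The model was tested on simulated data. The number of arrays limits the precision.

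All 38 genes could be named. Values on every array are given for genes called in any comparison and for the 2 of each role with the smallest p for BCR loss in untreated cultures (of genes shown for other reasons, Npm1, Noc3l and Polr1c were chosen after their values were seen). Where none was called the 3 smallest p are named, and of the other ribosome biogenesis genes the 5 largest called changes per direction. The genes and lists were chosen with earlier results of these data known. The filter for bright genes was chosen after seeing the data. Alternatives were cyclic loess, array medians subtracted, no block, a random block, a fit restricted to the compared arrays, dim genes (below the 30th percentile) left out, probe sets averaged per gene, eBayes with trend and robust, and leaving out each lymphoma and each array.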

Additional observations from a re-analysis of the deposited data

Results flagged for a closer look

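Dkc1 had differences of opposite sign with CHIR99021 in the 2 populations, neither of which passed: -0.06 ± 0.063 in BCR-positive cells (limma, adjusted p = 0.840) and 0.17 ± 0.063 in BCR-negative cells (limma, adjusted p = 0.170). Its value was lower with the inhibitor in BCR-positive cells of all 3 lymphomas (by 0.12, 0.04 and 0.02 in 2564, 2646 and 2676) and higher in BCR-negative cells of all 3 (by 0.13, 0.11 and 0.28). The second effect minus the first was 0.23 ± 0.089, which did not pass as an interaction (limma, adjusted p = 0.928).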

How the results depend on the processing

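The 13 genes followed for BCR loss in untreated cultures and the 5 for CHIR99021 in BCR-negative cells kept their direction under the 23 alternatives run for each. Many of these alternatives could not change it. By design the differences stay the same with no block, a random block, only the arrays compared, or trend and robust. The dim-gene filter and leaving out an array outside the comparison do not change them either. Over all 38 genes, the number with a lower mean ran from 36 to 38 for BCR loss in untreated cultures and from 0 to 2 for CHIR99021 in BCR-negative cells. It ran from 34 to 38 for BCR loss with CHIR99021, 1 to 11 for CHIR99021 in BCR-positive cells, 1 to 14 for the interaction and 18 to 35 for treated BCR-negative against untreated BCR-positive cells. For BCR loss in untreated cultures the number of the 38 genes called lower, 6 in the fit reported, was 0 with no replicate block, 0 with a random block, 0 with only the arrays compared, 13 after subtraction of array medians, and 0 to 15 when 1 lymphoma or array was left out. After cyclic loess Wdr75, Mrto4, Wdr74 and Ftsj3 were called, and Rrp12 and Ltv1 were not (261 of all genes lower). For CHIR99021 in BCR-negative cells the number called higher, 5, was 0 with no replicate block, 0 with a random block, 0 with only the arrays compared, 1 after cyclic loess, and 0 to 9 with 1 lymphoma or array left out. After subtraction of array medians Polr1c and Nop14 were called besides the 5 (836 of all genes higher). The median of the 38 there, 0.19, was 0.25 after subtraction of array medians and 0.15 after cyclic loess, and 0.15 to 0.25 with 1 lymphoma or array left out. The interaction median, 0.08, was 0.0361 to 0.1543 with 1 left out. The causes were not tested. Counts in the other 4 comparisons were 0 under every alternative run, and the medians for BCR loss in untreated cultures stayed between -0.32 and -0.20 with 1 left out. With 1 left out, the median for BCR loss with CHIR99021 was -0.225 to -0.0834, and that for CHIR99021 in BCR-positive cells was 0.033 to 0.1493. The median for treated BCR-negative against untreated BCR-positive cells, -0.04, was -0.0859 to 0.0055. The dim-gene filter, the mean of probe sets and the trend and robust option gave 6, 6 and 8 genes lower. Over all genes tested these fits called 553 (of 13174), 431 and 462 lower. The interaction has no fit of only the arrays compared apart from the one reported, since it uses all 12. Over all genes called for BCR loss in untreated cultures, 54.6% were lower, 77.9% after subtraction of array medians and 40.2% after cyclic loess. For CHIR99021 in BCR-negative cells these shares were 48.0%, 23.2% and 59.9%.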

Other observations

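Several probe sets carried the symbols of 6 of the 38 genes, and near-identical copies elsewhere in the genome may share their signal. For BCR loss in untreated cultures the 2 probe sets of Mrto4 gave -0.44 and -0.44, those of Fbl -0.28 and -0.25, and those of Wdr12 -0.26 and -0.30. The 4 of Npm1 gave -0.07 to -0.01. The second probe sets of Ncl and Pes1 were dim, with means of 4.07 and 4.10 against 11.50 and 9.77, and gave -0.03 and -0.03. For CHIR99021 in BCR-negative cells the probe sets of Fbl differed, with 0.11 ± 0.091 for the brighter one, which stood for the gene, and 0.27 ± 0.070 for the other. In the same order they gave -0.30 and -0.18 for BCR loss with CHIR99021. For treated BCR-negative against untreated BCR-positive cells they gave -0.18 and 0.02.

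Genes with CACGTG in the promoter window had a median difference of -0.29 for BCR loss in untreated cultures (5 genes) and those without it -0.23 (28 genes). The ranges were -0.37 to -0.12 and -0.46 to -0.03, so one lay within the other. For CHIR99021 in BCR-negative cells the medians were 0.24 and 0.18, with ranges of 0.15 to 0.27 and 0.04 to 0.42, again one within the other. In BCR-positive cells the medians for CHIR99021 were 0.07 with CACGTG and 0.09 without it. For the interaction they were 0.09 and 0.09. BCR loss with CHIR99021 gave -0.205 and -0.13, and treated BCR-negative against untreated BCR-positive cells -0.05 and -0.03. A part of the element in these differences was not tested.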
